A study of Homo sapiens with 12 samples.

Results

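LM-EV cells at 48 h of hypoxia were compared with LM-EV cells at 6 h of hypoxia, to describe what separates the late from the early response of this line. The comparison rests on the arrays that the labels give as the control-vector line under hypoxia for 48 h (2 arrays) and for 6 h (2 arrays), 4 of the 12 arrays of the series, with 1 array of each time on each of 2 slides. LM is a derivative of the human breast cancer cell line MDA-MB-231 selected for lung metastasis, and LM-EV is a pool of puromycin-resistant LM colonies that carry an empty vector. Hypoxia was 1% O2, which the labels combine with low glucose (1 mg/ml) and the study's methods give alone. Both times share these conditions and differ in their length. Untreated cells were measured at 0 h only, so longer hypoxia and longer time in culture cannot be told apart. The other 8 arrays were used to place the comparison: LM-EV cells with no treatment (0 h, 2 arrays), and the BHLHE40-KD line without treatment and after 6 h or 48 h (2 arrays each). BHLHE40-KD cells are LM cells of 1 stable line carrying a short hairpin RNA against BHLHE40, a transcriptional repressor of the basic helix-loop-helix family.

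Cells meet low oxygen in waves. Stabilization of hypoxia-inducible factor (HIF) raises transcripts for glucose uptake, glycolysis, blood vessel growth and oxygen sensing, and stress kinases and the unfolded protein and amino acid responses act on shorter times through factors such as ATF4, AP-1 and NF-kappaB. Many early transcripts are unstable and return once their inducer fades, while genes for the extracellular matrix and for metabolism build up slowly. Genes of the interferon response, which hold an interferon-stimulated response element in many of their promoters, are kept at a basal level in many cancer cell lines.

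RNA was measured as the normalized intensity of bead-array probes, with 1 probe per gene for 12336 genes detected in at least 1 group. Values are linear and have no unit. The lowest intensity of a detected probe was between 42.2 and 51.8 on the 12 arrays, and smaller values cannot be told from background. Markers of mesenchymal-like breast cancer cells (VIM, CD44, EGFR, ZEB1, AXL and others) were detected on all 4 arrays for 9 of 10 genes, with FN1 not detected on any. Of 10 luminal epithelial markers 6 were detected on all 4 arrays, among them KRT8, KRT18 and GATA3, and PGR on none. TFF1, CDH1 and ESR1 were higher on slide 1 than on slide 2 at both times. On slide 1 they had 1362, 247 and 101 at 48 h and 412, 54.4 and 47.9 at 6 h. On slide 2 they had 8.91, -20.5 and -24.7 at 48 h and 4.27, 20.2 and 9.82 at 6 h. KRT19 was at least 1.5-fold higher at 48 h (25374 and 22495) than at 6 h (16772 and 13687) on both slides. Of the leukocyte markers CD14 and CD68 were detected on all 4 arrays and PTPRC, CD3D, CD3E and MS4A1 on none. Of 6 endothelial markers 4 were detected on none, among them CDH5 and VWF, and PECAM1 on all 4 arrays. Of 7 fibroblast markers 3 were detected on none, among them DCN and COL3A1, and ACTA2 on all 4 arrays. PDGFRB was at least 1.5-fold lower at 48 h (31.3 and 63.3) than at 6 h (134 and 108) on both slides. BHLHE40 itself had intensities of 3365 and 6482 at 48 h (slides 1 and 2) and 4283 and 6795 at 6 h, a log2 difference of -0.21 (SE 0.29, limma adjusted p = 0.80) that did not pass the threshold. Since these are bulk RNA samples, fewer cells that make a transcript and less of it per cell cannot be told apart.

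At 48 h, 13 genes were higher and 15 lower than at 6 h at an adjusted p under 0.05, which is 0.227% of the genes tested (0.105% and 0.122% by direction; limma with slide as a block; Benjamini-Hochberg adjustment). At an unadjusted p under 0.05 there were 1790 genes (14.5%), 896 higher (7.26%) and 894 lower (7.25%). By the study's own rule, under which both slides must show 1.5-fold or more one way, there were 302 higher (2.45%) and 311 lower (2.52%) genes. These included all 28 genes past the threshold. At the edge of that rule SMURF1 was just inside on the high side (1.501-fold on its weaker slide) and TIGD5 just outside (1.499-fold), and on the low side RAD54B lay inside (1.5002-fold) and DHX58 outside (1.498-fold). Across genes, the 48 h minus 6 h differences of slide 1 and slide 2 had a Pearson r of 0.331 over 12336 genes and 0.493 over the 10151 genes detected on all 12 arrays, as a description, since genes are not independent replicates. The count of 28 rested on the whole set of arrays, and without 1 array it ran between 0 and 9. It was 0 without either LM-EV array at 48 h or at 0 h, 8 and 1 without the LM-EV array at 6 h of slide 1 and slide 2, and 2, 9 and 3 without a BHLHE40-KD array at 0 h, 6 h and 48 h. None of the 28 genes changed direction in these fits. Without the slide as a block 10 genes passed, 6 higher and 4 lower. With 2 arrays a group an exact permutation test cannot go below p = 0.3333 for a single gene, so the test rests on the variance shared in the fit over all groups.

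**Figure D1:**
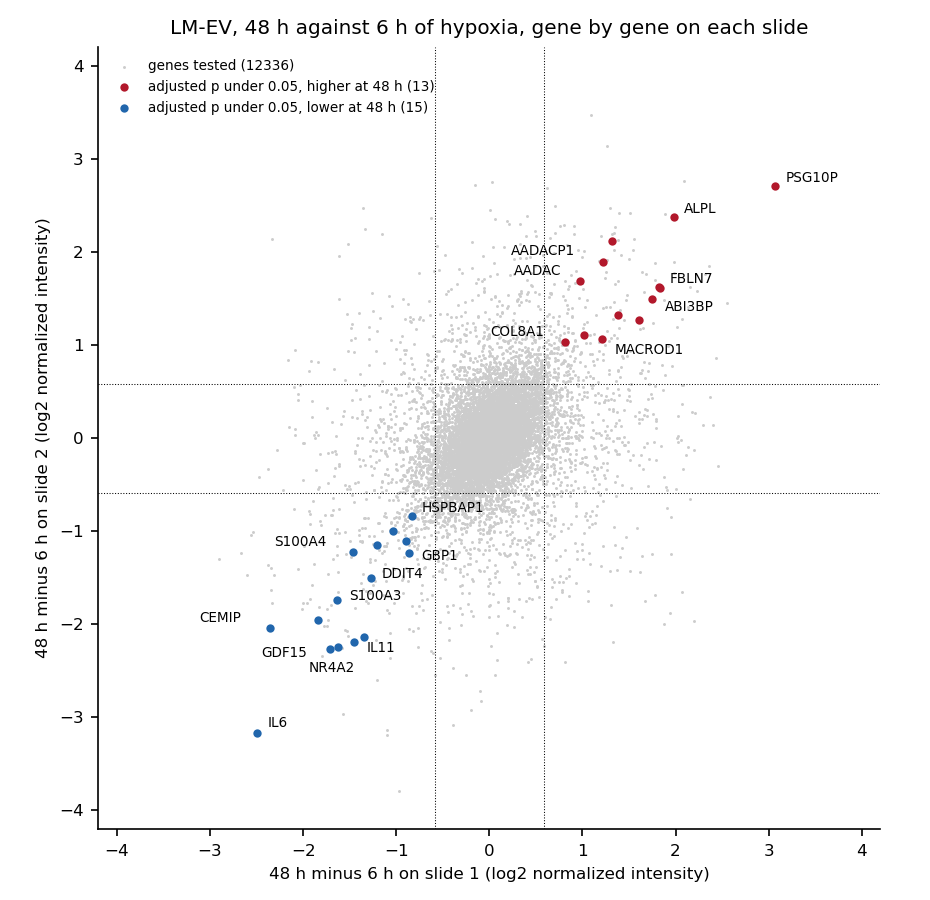
Difference in log2 normalized intensity between 48 h and 6 h in LM-EV cells for each of 12336 genes, slide 1 on the horizontal axis and slide 2 on the vertical axis; dotted lines mark a fold of 1.5 and coloured points the 13 higher and 15 lower genes with an adjusted p under 0.05. IL6 lies lowest among the lower genes and PSG10P highest among the higher ones, and the coloured points lie on the same side of 0 on both slides.

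Among the 15 genes that fell, IL6 fell most. It encodes an inflammatory cytokine that signals through STAT3. IL6 had intensities of 1404 and 1318 at 48 h, against 7891 and 11832 at 6 h. Both arrays at 48 h were far below both at 6 h, and also below the 2745 and 2931 of untreated cells. The log2 difference was -2.83 (SE 0.19, adjusted p = 0.00956), so a transcript that was 1.77 higher on the log2 scale at 6 h than at 0 h (adjusted p = 0.031) was lower at 48 h than at 0 h (log2 difference -1.06, adjusted p = 0.046). Of all genes 0.559% passed between 6 h and 0 h and 1.88% between 48 h and 0 h, 2 comparisons that share arrays with the present one. IL11, a cytokine of the same receptor family, which shares the signalling chain gp130 with IL6, fell too. IL11 was 1498 and 1087 at 48 h and 4094 and 4961 at 6 h, with 2390 and 1342 at 0 h. Its log2 difference between 48 h and 6 h was -1.82 (SE 0.24, adjusted p = 0.046).

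GDF15, a stress-induced hormone of the TGF-beta family, fell to 509 and 1242 at 48 h, against 1668 and 5978 at 6 h. Slide 2 was the higher one at each time, and both arrays at 48 h were below both at 6 h. The log2 difference was -1.99 (SE 0.21, adjusted p = 0.0268). NR4A2, an orphan nuclear receptor of the immediate early genes, was 183 and 283 at 48 h and 564 and 1339 at 6 h (log2 difference -1.93, SE 0.20, adjusted p = 0.0268). At 0 h NR4A2 was 221 and 324, close to its level at 48 h (48 h minus 0 h: -0.23, adjusted p = 0.57). DDIT4, also called REDD1, a stress-induced inhibitor of mTORC1, had 8089 and 14843 at 48 h, against 19523 and 42042 at 6 h and 5925 and 10282 at 0 h. Its log2 difference between 48 h and 6 h was -1.39 (SE 0.16, adjusted p = 0.035), and between 48 h and 0 h it was 0.49, which did not pass (adjusted p = 0.14). CCL20, the ligand of the chemokine receptor CCR6, had the same shape, with 483 and 648 at 48 h and 1039 and 1878 at 6 h, but missed the threshold (log2 difference -1.32, adjusted p = 0.0912).

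The promoter of DDIT4, and those of the cyclin gene CCNG2 and of ANGPTL4, hold the letters ACGTG, the core that HIF dimers bind, and that of IL11 holds TGANTCA, the core of AP-1 sites. They are shown because DDIT4, CCNG2 and IL11 were high at 6 h and lower at 48 h, while ANGPTL4, with the same ACGTG, was above its untreated level by 1.5-fold or more at both times. Capitals mark the letters found on either strand within the window from 250 bases before to 50 after the RefSeq start site (GRCh38.p14), and each line runs in the direction of the gene.
DDIT4, chr10:72273759-72273843, plus strand: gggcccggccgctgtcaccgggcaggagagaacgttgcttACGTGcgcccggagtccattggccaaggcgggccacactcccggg
CCNG2, chr4:77157137-77157222, plus strand: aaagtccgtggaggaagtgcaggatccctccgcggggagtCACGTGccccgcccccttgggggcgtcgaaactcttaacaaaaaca
ANGPTL4, chr19:8363905-8363965, plus strand: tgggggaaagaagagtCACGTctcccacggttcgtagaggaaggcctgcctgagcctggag
IL11, chr19:55370513-55370599, minus strand: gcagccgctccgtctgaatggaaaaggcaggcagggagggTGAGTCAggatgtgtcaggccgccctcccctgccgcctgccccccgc

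The windows of IL6 and GDF15 hold none of the 5 sets of letters searched, which says nothing beyond these windows, and NR4A2 was not matched to a window. ACGTG stood in 26.8% of the 9895 promoters of tested genes that were matched and in 21.6% of all 27305 promoters of the table. The share was 26.2% among the 42 matched promoters of genes that were high at 6 h and lower again at 48 h. It was 22.2% among the 90 of genes that were high at both times. Both sets are defined below. CACGTG, which contains ACGTG on both strands, stood in 10.1% of the tested promoters and in 7.43% of all. TGANTCA stood in 4.55% of the tested promoters and in 7.76% of all, and the endoplasmic reticulum stress element (CCAAT and CCACG at its fixed spacing) in 0.141% and 0.0806%. A match of letters is a description of the sequence and not of binding.

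The rises of IL11 and GDF15 from 0 h to 6 h did not pass the threshold, nor did the difference of GDF15 between 48 h and 0 h. CEMIP, S100A4, S100A3 and TINAGL1 also did not pass between 6 h and 0 h, and they fell by 48 h. CEMIP, a hyaluronan-degrading protein linked to invasion, had 83.0 and 142 at 48 h, against 426 and 586 at 6 h and 379 and 498 at 0 h. Its log2 difference between 48 h and 6 h was -2.20 (SE 0.25, adjusted p = 0.0321). S100A4, a calcium-binding protein of metastatic and mesenchymal cells, was 1353 and 1509 at 48 h and 3723 and 3520 at 6 h (log2 difference -1.34, SE 0.14, adjusted p = 0.0268). S100A3, its neighbour in the S100 gene cluster of chromosome 1, was 220 and 255 at 48 h and 684 and 854 at 6 h (log2 difference -1.69, SE 0.17, adjusted p = 0.0268). For these 3 genes both arrays at 48 h were below both at 6 h and both at 0 h. TINAGL1, a matrix protein related to tubulointerstitial nephritis antigen, had 159 and 167 at 48 h and 403 and 732 at 6 h (log2 difference -1.74, adjusted p = 0.0374).

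Smaller falls were seen for LARP6, which binds collagen mRNAs (3196 and 3565 at 48 h, 6550 and 7098 at 6 h, log2 difference -1.01, adjusted p = 0.0424), and for SAA1, an acute phase protein (2072 and 2258 against 4767 and 5002, log2 difference -1.17, adjusted p = 0.046). SAA1 and its neighbour SAA2 are near-identical, so their probes may share signal. SPECC1 and HSPBAP1 fell by 1.00 and 0.84 on the log2 scale (adjusted p = 0.046 and 0.0452). CGN, the tight junction protein cingulin, was detected on both arrays at 6 h (67.5 and 61.8) and on neither at 48 h (18.8 and 6.92), so its intensity at 48 h was lower by a factor of at least 1.34 (adjusted p = 0.0268). In the bounds given here for probes not detected at 1 of the times, the mean log2 intensity of the higher time is set against the lowest detected signal of each array of the other.

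Of the 13 genes that rose, 6 were detected on both arrays at both times. By the classes defined below, 8 of the 13 were late high, and 3 had been lower at 6 h than at 0 h before they rose (transient low). PLCB2 was low at 6 h and then crossed its untreated level. COL8A1, a collagen of the short-chain type, had 4976 and 4927 at 48 h, against 2832 and 2414 at 6 h (log2 difference 0.92, SE 0.11, adjusted p = 0.0424). MACROD1, an enzyme that removes ADP-ribose, was 1732 and 1849 at 48 h and 748 and 888 at 6 h (log2 difference 1.13, SE 0.11, adjusted p = 0.0268). AADAC, an arylacetamide deacetylase of lipid metabolism, was 3438 and 3955 at 48 h and 1747 and 1229 at 6 h (log2 difference 1.33, SE 0.18, adjusted p = 0.046). Its pseudogene AADACP1 was 4920 and 5350 at 48 h and 2114 and 1439 at 6 h (log2 difference 1.56, adjusted p = 0.0268), and since both lie on chromosome 3 and are near-identical in part, the share of each in the other's signal is uncertain. ABI3BP and FBLN7 encode matrix-associated proteins. ABI3BP was 413 and 334 at 48 h and 123 and 118 at 6 h (log2 difference 1.62, adjusted p = 0.0268), and FBLN7 188 and 349 at 48 h and 53.1 and 113 at 6 h (log2 difference 1.72, adjusted p = 0.0374). In all 6 genes both arrays at 48 h were above both at 6 h.

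The other 7 were not detected on either array at 6 h. PSG10P, a pseudogene of the pregnancy-specific glycoproteins with many near-identical relatives, had 135 and 287 at 48 h and -15.4 and 43.8 at 6 h, and was at least 3.90-fold higher at 48 h. IL18R1, a chain of the interleukin-18 receptor, was at least 2.16-fold higher (112 and 105 at 48 h, 43.2 and 42.2 at 6 h). The bounds were 1.72-fold for MICALCL, 1.56-fold for the dopamine receptor DRD4, 1.48-fold for PLCB2 and 1.46-fold for ALPL, the tissue-nonspecific alkaline phosphatase. MTMR7 was detected on 1 of the 2 arrays at 48 h, with intensities of 48.9 and 38.5 at 48 h and 11.6 and 9.11 at 6 h, and no bound above 1 is given for it. Of all 28 genes, 8 had other detected probes, 11 in total, and the sign of the 48 h minus 6 h difference was that of the chosen probe for all 11. The log2 difference was under a fold of 1.5 for a probe each of COL8A1 (0.25), SAA1 (-0.40), SPECC1 (-0.32) and LARP6 (-0.56). The rest were past it.

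**Figure D2:**
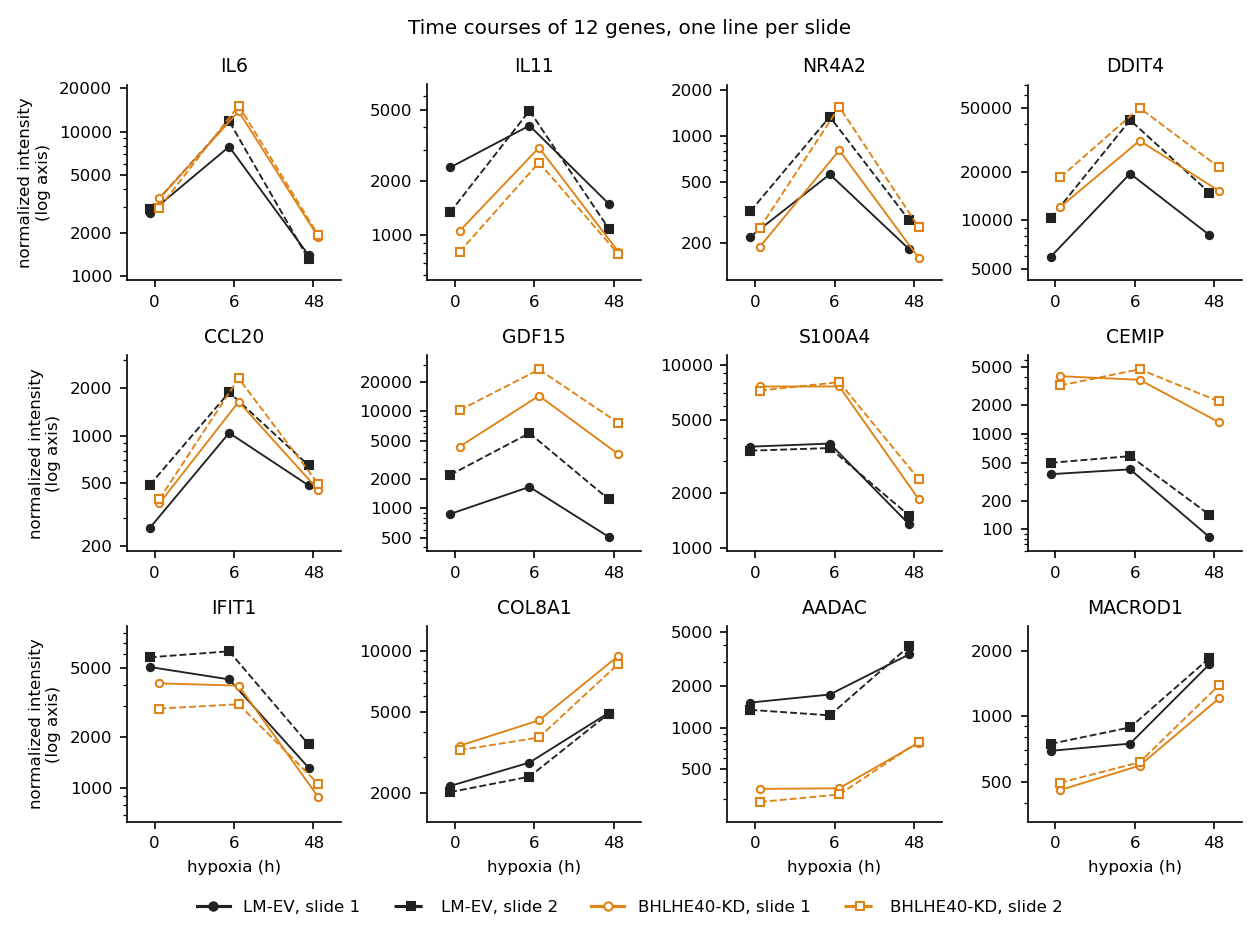
Normalized intensity on a log axis (a separate range in each panel) against hours of hypoxia (0, 6 and 48) for 12 genes, with LM-EV in black and BHLHE40-KD in orange and slides 1 and 2 as circles and squares. IL6, IL11, NR4A2, DDIT4, CCL20 and GDF15 peak at 6 h on every slide of both lines, whereas S100A4, CEMIP and IFIT1 fall and COL8A1, AADAC and MACROD1 rise between 6 h and 48 h.

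For 28 lists of genes grouped by function, the members were counted and their median was set beside the median of all genes tested, which was 0.00 for 48 h minus 6 h. The lowest medians were those of the cluster-encoded histone genes (-0.47), the interferon-stimulated genes (-0.38), genes of ATF4 and the amino acid response (-0.37), inflammatory cytokines and chemokines (-0.28) and nutrient and energy sensors (-0.26). The highest were those of ribosome biogenesis (0.20), glycolysis and glucose transport (0.19) and HIF targets outside glycolysis (0.16). On slides 1 and 2 they were 0.32 and 0.07, 0.24 and 0.21, and 0.10 and 0.30. Against 0 h, the ribosome biogenesis median was -0.23 at 6 h and -0.15 at 48 h, below 0 at both times. Those of glycolysis were 0.12 and 0.33, and those of HIF targets 0.39 and 0.70. Most lists had no member past the adjusted threshold, so for them the counts by the 1.5-fold rule and the medians are descriptions.

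**Figure D3:**
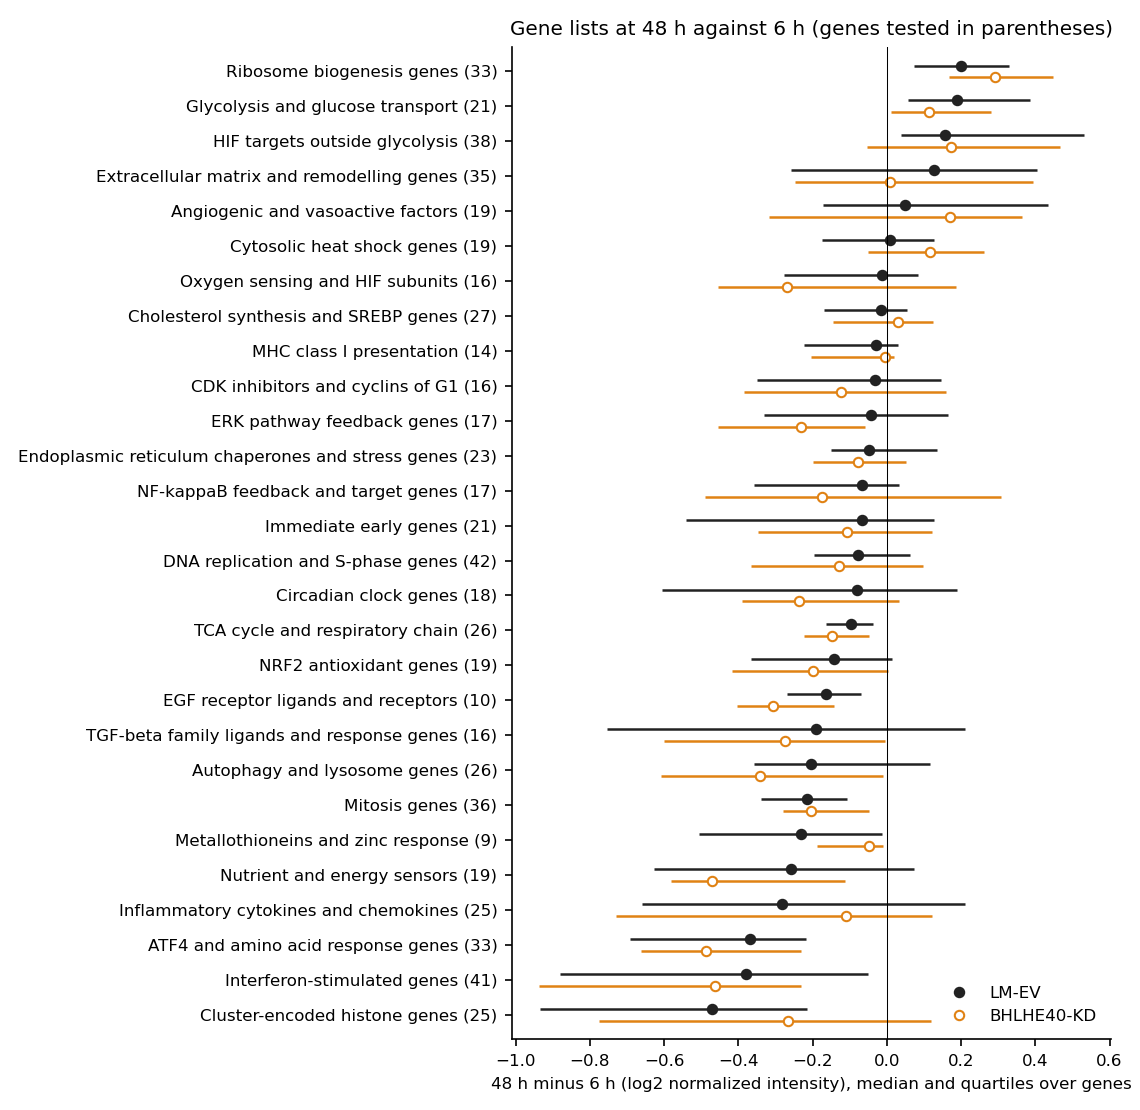
Median (points) and quartiles (lines) over the genes of each of 28 lists of the log2 difference between 48 h and 6 h, LM-EV filled and above, BHLHE40-KD open and below; the number of genes tested is in parentheses. Histone, interferon-stimulated and ATF4 genes lie lowest and ribosome biogenesis genes highest in LM-EV.

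Interferon-stimulated genes encode antiviral effectors such as the IFIT and OAS proteins. Of 41 tested, 1 fell past the adjusted threshold and 0 rose (background 0.122% lower). At an unadjusted p under 0.05 (limma) 17 were lower and 0 higher (background 7.25% lower). By at least 1.5-fold on both slides 11 were lower and 0 higher (background 2.52% lower). The 1 that passed was GBP1, an interferon-induced GTPase, with 1088 and 1167 at 48 h, against 1984 and 2756 at 6 h (log2 difference -1.05, SE 0.14, adjusted p = 0.0477). IFIT1 was 1319 and 1802 at 48 h and 4296 and 6255 at 6 h (log2 difference -1.75, adjusted p = 0.0673), and ISG15, a ubiquitin-like modifier, 4244 and 6298 at 48 h and 9612 and 14450 at 6 h (log2 difference -1.19, adjusted p = 0.102). Both arrays at 48 h were below both at 6 h for all 3 of these genes. IFIT1 and ISG15 were at 5069 and 5771, and at 8671 and 13996, at 0 h, so their intensities at 6 h were near those of untreated cells. IFIT3 stood lower at each step (3595 and 4377 at 0 h, 2011 and 2577 at 6 h, 935 and 1153 at 48 h), whereas IFI44 (3402 and 4139 at 48 h, 3864 and 4918 at 6 h) and MX1 (290 and 459 at 48 h, 315 and 502 at 6 h) had log2 differences of -0.22 and -0.12 (adjusted p = 0.713 and 0.826). Class I presentation genes, many of which respond to interferon too, had a median of -0.03 over 14 genes, none past the threshold. The summed intensity of the 8 leukocyte markers with a probe was 17774 and 21002 at 48 h and 12268 and 15010 at 6 h. Nearly all of it was CD68, a lysosomal protein (17128 and 20230 at 48 h, 11452 and 14025 at 6 h), while CD14 was lower at 48 h (508 and 615) than at 6 h (646 and 808), and PTPRC, CD3D, CD3E and MS4A1 were not detected at either time. The part of these markers in the result was not tested.

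**Figure D4:**
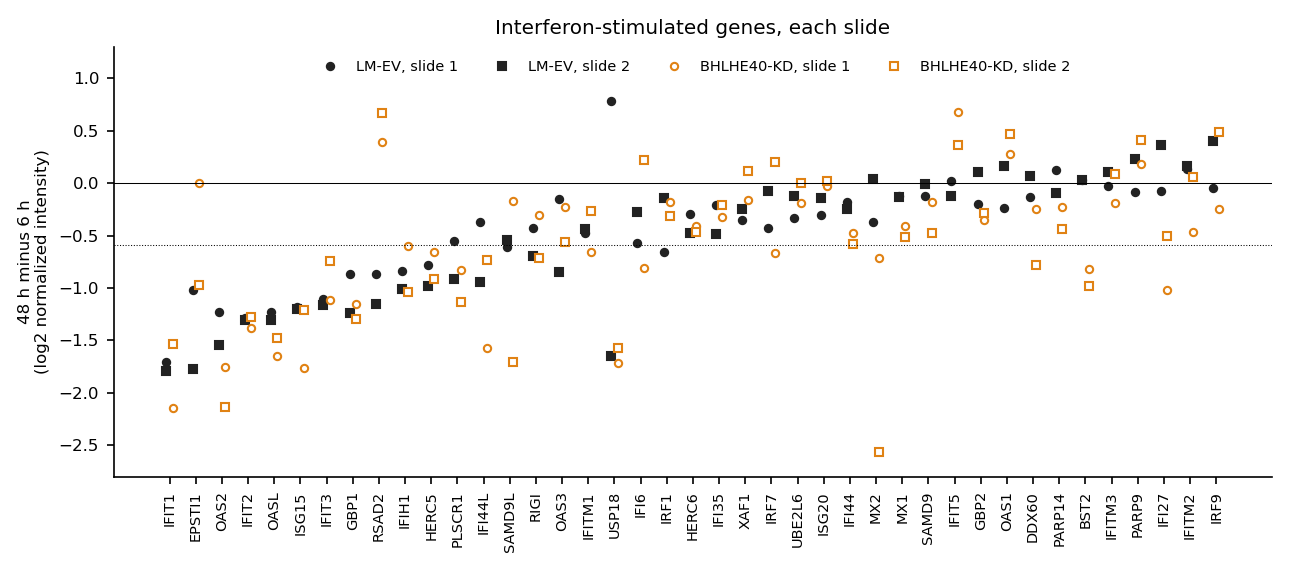
Log2 difference in normalized intensity between 48 h and 6 h for each of 41 interferon-stimulated genes, by slide, LM-EV filled and BHLHE40-KD open; the dotted line marks a fold of 1.5 downwards. The 11 genes at the left, from IFIT1 to HERC5, lie below the dotted line on both LM-EV slides, whereas RSAD2 lies above 0 on both BHLHE40-KD slides and USP18 differs between the LM-EV slides.

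The interferon-stimulated response element was searched for on both strands as GAAAC and GAAA with any base between them. It stood in 0.788% of the promoters of tested genes and 0.769% of all, and in 48.5% of the 33 promoters matched to the list. The median difference was -0.22 for the 16 genes whose window held it and -0.40 for the 17 whose window did not. Of those, 5 and 3 were lower by at least 1.5-fold on both slides (2.52% of all genes tested). The windows of 3 genes that were lower at 48 h (GBP1, IFIT1, ISG15) and of IFI44, which has the same letters and a difference of -0.22, are shown, so that like elements can be set beside unlike differences, with the element in capitals.
GBP1, chr1:89065281-89065380, minus strand: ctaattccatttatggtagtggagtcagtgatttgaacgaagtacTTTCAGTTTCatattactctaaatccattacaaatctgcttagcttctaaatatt
IFIT1, chr10:89392475-89392574, plus strand: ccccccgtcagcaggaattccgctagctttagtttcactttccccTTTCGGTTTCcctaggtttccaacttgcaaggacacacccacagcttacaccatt
ISG15, chr1:1013345-1013444, plus strand: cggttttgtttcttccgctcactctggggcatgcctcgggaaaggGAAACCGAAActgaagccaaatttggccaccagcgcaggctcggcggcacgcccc
IFI44, chr1:78649726-78649825, plus strand: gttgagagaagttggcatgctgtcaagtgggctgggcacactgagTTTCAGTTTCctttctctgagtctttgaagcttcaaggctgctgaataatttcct

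ATF4 drives genes for amino acid synthesis and uptake and for tRNA charging. Of 33 tested, 0 passed the adjusted threshold, 12 were lower and 0 higher at an unadjusted p under 0.05 (background 7.25% lower), and 7 were lower and 0 higher by the 1.5-fold rule (background 2.52% lower). DDIT3, the stress factor CHOP, had 1406 and 2117 at 48 h and 2315 and 3429 at 6 h (log2 difference -0.71, adjusted p = 0.066), and SLC7A5, a transporter of large amino acids, 4484 and 3855 at 48 h and 7082 and 7529 at 6 h (log2 difference -0.81, adjusted p = 0.126). ATF4 itself differed by -0.24 (adjusted p = 0.42). Among 19 nutrient and energy sensors DDIT4 fell past the threshold (0.122% of all genes). CCNG2, a cyclin induced when growth factor signalling is low, was 1258 and 1670 at 48 h and 2076 and 3036 at 6 h (log2 difference -0.79, limma adjusted p = 0.186). DDIT4L was the other way round, with 873 and 802 at 48 h and 589 and 479 at 6 h (log2 difference 0.66, adjusted p = 0.199).

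Of 25 inflammatory cytokines and chemokines, IL6 and IL11 fell past the threshold (background 0.122%), 8 were lower and 1 higher at an unadjusted p under 0.05 (7.25% and 7.26% of all genes), and 6 were lower and 1 higher by the 1.5-fold rule (2.52% and 2.45%). By the rule the higher one was IL32, a cytokine of immune and epithelial cells, with 724 and 751 at 48 h and 448 and 370 at 6 h (log2 difference 0.86, adjusted p = 0.512), whereas IL1A, an alarmin, was 2913 and 3457 at 48 h and 3830 and 4810 at 6 h (log2 difference -0.44, adjusted p = 0.437). Of the immediate early genes 1 of 21 (NR4A2) fell past the threshold (0.122% of all genes). ATF3, a repressor of the CREB family, was 456 and 537 at 48 h and 730 and 945 at 6 h (log2 difference -0.75, adjusted p = 0.102). HBEGF, a ligand of the EGF receptor, and CCN2, the matricellular protein listed by the study as CTGF, differed by -0.12 and -0.10 (adjusted p = 0.795 and 0.789), with the 2 slides on opposite sides of 0 for both.

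HIF targets outside glycolysis had 0 of 38 genes past the adjusted threshold in either direction. At an unadjusted p under 0.05 (limma) 10 were higher and 0 lower (background 7.26% higher). By the rule 2 were higher (EGLN3 and P4HA1) and 0 lower (background 2.45% higher). P4HA1, a collagen prolyl hydroxylase, was 6037 and 8631 at 48 h and 3988 and 4797 at 6 h (log2 difference 0.72, adjusted p = 0.126), and BNIP3, a mitophagy receptor, 42137 and 49270 at 48 h and 28387 and 28778 at 6 h (log2 difference 0.67, adjusted p = 0.144). VEGFA, the vascular growth factor, differed by 0.05 and ADM, the vasodilator adrenomedullin, by -0.02 (adjusted p = 0.925 and 0.987). Of 21 genes of glycolysis 7 were higher and 0 lower at an unadjusted p under 0.05 (7.26% and 7.25% of all genes), with the enolase ENO2 at 7194 and 11470 at 48 h and 4954 and 5376 at 6 h (log2 difference 0.82, adjusted p = 0.142) and the glycolytic kinase PGK1 at 27742 and 33278 at 48 h and 19031 and 22338 at 6 h (log2 difference 0.56, adjusted p = 0.189). LDHA was 68656 and 70960 at 48 h and 72594 and 71836 at 6 h. The highest intensity on any array was 72594, so LDHA lay at the top of the range, where a difference cannot be read.

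In the cell cycle lists, of 36 mitosis genes 0 passed, and 8 were lower and 0 higher at an unadjusted p under 0.05 (7.25% and 7.26% of all genes), with a median of -0.22. CDC25C, the phosphatase that triggers mitosis, was 1018 and 933 at 48 h and 1895 and 1593 at 6 h (log2 difference -0.83, adjusted p = 0.0673). The 42 genes of DNA replication had a median of -0.08, which was 0.11 on slide 1 and -0.29 on slide 2. Against 0 h their median was -0.36 at 6 h and -0.41 at 48 h. At an unadjusted p under 0.05 (limma), 17 and 20 of them were lower than at 0 h and 0 higher (9.41% and 10.3% of all genes lower). Of 25 cluster-encoded histone genes 7 were lower by the rule (2.52% of all genes) and 0 passed. Histone genes have near-identical copies, so the gene behind each probe is uncertain. Of 33 ribosome biogenesis genes 5 were higher and 0 lower at an unadjusted p under 0.05 (7.26% and 7.25% of all genes), among them RRS1, a ribosome assembly factor (1429 and 1095 at 48 h, 809 and 668 at 6 h, log2 difference 0.77, adjusted p = 0.103).

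Of 35 genes of the extracellular matrix COL8A1 rose and CEMIP fell past the threshold (0.105% and 0.122% of all genes). By the rule 3 were higher and 3 lower (2.45% and 2.52% of all genes). Of 16 genes of the TGF-beta family 1 (GDF15) fell past the threshold (0.122% of all genes). TGFB3 was not detected at 48 h (-4.84 and 12.5) and was detected at 6 h (55.8 and 81.1). It was lower by a factor of at least 1.396 at 48 h but missed the threshold (limma adjusted p = 0.0774). Of 18 circadian clock genes 0 passed, and 4 were lower and 1 higher by the rule (2.52% and 2.45% of all genes). PER2, a repressor of the clock, was 321 and 422 at 48 h and 704 and 940 at 6 h (log2 difference -1.14, adjusted p = 0.119), and CRY2, its partner, 193 and 237 at 48 h and 356 and 405 at 6 h (log2 difference -0.83, adjusted p = 0.102). Of 19 NRF2 genes 0 passed and NQO1, a quinone reductase, was 3849 and 2704 at 48 h and 6838 and 5644 at 6 h (log2 difference -0.95, adjusted p = 0.0861).

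The genes were then sorted by their course over 0 h, 6 h and 48 h in LM-EV cells, by folds of at least 1.5 that held on both slides. Transient genes left their untreated level at 6 h and moved 1.5-fold or more the other way by 48 h, whether or not they regained it. Sustained genes had left the untreated level in the same direction at both times without a further fold of 1.5 on both slides. Late genes were within 1.5-fold of it at 6 h and left it afterwards. These folds share arrays, so the counts are a description and carry no test. There were 58 transient genes that were high at 6 h and 73 that were low, 116 sustained high and 104 sustained low, and 64 late high and 89 late low. Another 3 genes (KRTAP4-11, SDCBP2 and DEPP1) were higher at each step, 4 (IFIT3, FLG, TNFRSF11B and ZNF530) lower at each step, and 5 crossed their untreated level: IL6 and GDF15, high at 6 h and low at 48 h, and PLCB2, TMEM25 and IFT140, low and then high. Of the 28 genes past the threshold, 8 were late high, 6 late low, 3 transient high (NR4A2, IL11 and DDIT4), 3 transient low, 3 crossed, and 5 had no class.

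Sustained high genes included TXNIP, an inhibitor of thioredoxin and of glucose uptake, with 4508 and 6035 at 0 h, 17258 and 26196 at 6 h and 16640 and 32700 at 48 h. Between 48 h and 6 h it differed by 0.13 on the log2 scale, with the slides on opposite sides of 0 (adjusted p = 0.837). ANGPTL4, which inhibits lipoprotein lipase, was 717 and 822 at 0 h, 2377 and 5268 at 6 h and 2731 and 10799 at 48 h, and PDK4, a kinase that restrains pyruvate dehydrogenase, 139 and 258 at 0 h, 805 and 755 at 6 h and 486 and 575 at 48 h. Between 48 h and 6 h ANGPTL4 differed by 0.62 and PDK4 by -0.56 on the log2 scale, and neither passed (adjusted p = 0.585 and 0.464). Late high genes included IGFBP3, a carrier of insulin-like growth factors, with 4458 and 10608 at 48 h and 2302 and 2625 at 6 h (log2 difference 1.48, adjusted p = 0.143), and F3, the coagulation starter tissue factor, with 14010 and 15620 at 48 h and 6207 and 8148 at 6 h (log2 difference 1.06, adjusted p = 0.0625). IGFBP3 and F3 were chosen for mention after their values were seen. Not all members were measured above background at each time: 30 of 58 transient high and 26 of 73 transient low genes, 79 of 116 sustained high and 47 of 104 sustained low genes, and 41 of 64 late high and 46 of 89 late low genes were detected on both arrays at all 3 times.

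BHLHE40-KD arrays were not used to set the classes, and give the same measures in a second line on the same 2 slides. Between 48 h and 6 h the median log2 difference in BHLHE40-KD cells was -0.69 for transient high genes, 0.50 for transient low genes, 0.58 for late high genes and -0.81 for late low genes, beside 0.00 for all genes. Over the members detected on all 12 arrays these medians were -1.05 (27 genes), 0.68 (25), 0.66 (38) and -0.87 (41). For sustained high and sustained low genes the medians in BHLHE40-KD cells were 0.06 and 0.25. Over members detected on all 12 arrays they were 0.05 (71 genes) and 0.31 (41). By the same definition, 24 of the 58 transient high genes had this class in BHLHE40-KD cells as well (41.4%, with 0.665% of all genes in that class there). So did 10 of 73 transient low genes (13.7% against 1.35%), 25 of 116 sustained high genes (21.6% against 0.940%) and 29 of 104 sustained low genes (27.9% against 1.35%). For late genes it was 12 of 64 high (18.8% against 0.576%) and 25 of 89 low (28.1% against 0.932%). Both lines lay on the same slides, so slide effects on single probes are shared between them.

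**Figure D5:**
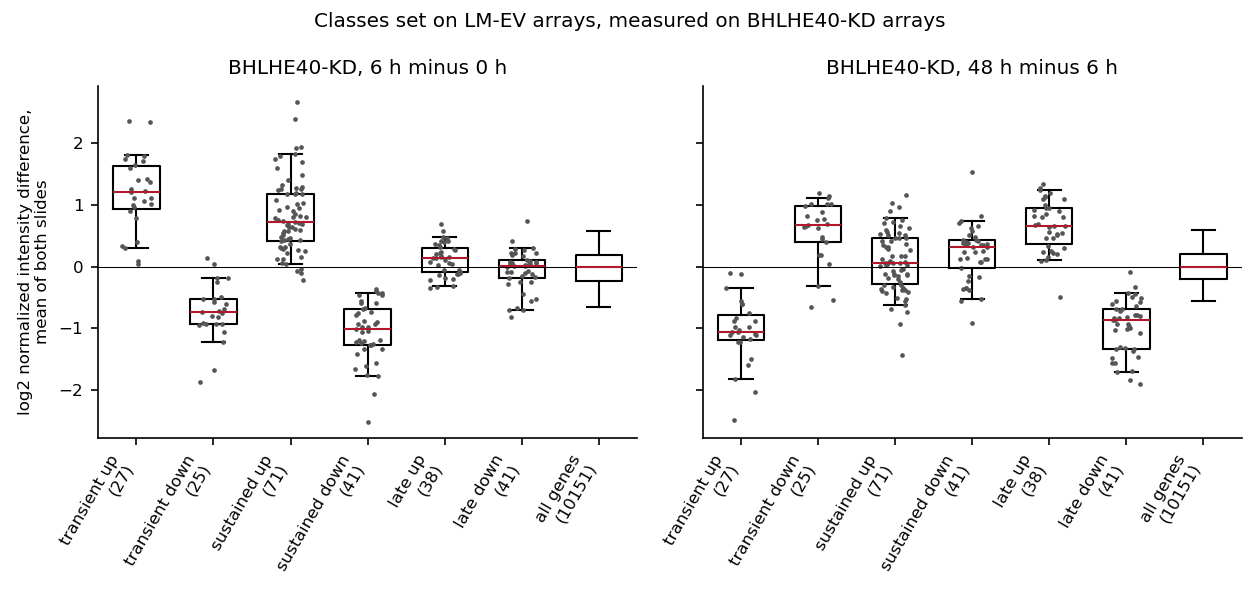
Log2 differences in normalized intensity in BHLHE40-KD cells (mean of both slides), 6 h minus 0 h at the left and 48 h minus 6 h at the right, for genes sorted into classes on LM-EV arrays and detected on all 12 arrays; boxes show median and quartiles, whiskers the 5th and 95th percentiles, points single genes and parentheses the number of genes. Between 48 h and 6 h the medians are -1.05 for transient up, 0.68 for transient down, 0.66 for late up and -0.87 for late down.

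In BHLHE40-KD cells 238 genes (1.93%) passed the threshold between 48 h and 6 h, 135 higher and 103 lower. Of the 28 genes of LM-EV cells, 19 passed there in the same direction, 6 of the 13 higher and 13 of the 15 lower genes, which is 67.9% of the LM-EV genes and 7.98% of the BHLHE40-KD genes. Both sets of p-values share each gene's residual variance in a single fit. By the rule of 1.5-fold on both slides, which does not use that variance, 6 of the 13 and 12 of the 15 had the same direction in BHLHE40-KD cells, with 4% and 3.43% of all genes past it in those directions. IL6 differed by -2.92 in BHLHE40-KD cells (1879 and 1941 at 48 h, 13843 and 15158 at 6 h) and S100A4 by -1.90 (1855 and 2386 at 48 h, 7626 and 8049 at 6 h). The 2 lower genes that did not pass there were CEMIP (-1.30, adjusted p = 0.051) and TINAGL1 (-0.60, adjusted p = 0.16).

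The difference between the lines in their 48 h against 6 h change was tested as an interaction, BHLHE40-KD minus LM-EV. It passed the threshold for 0 genes (limma), with 711 at an unadjusted p under 0.05 (5.76%), so a difference between the lines was not shown for any gene. Among the genes that rose in LM-EV cells, the interaction was -1.83 for ALPL (adjusted p = 0.20), -1.72 for PLCB2 (adjusted p = 0.19) and -1.48 for DRD4 (adjusted p = 0.15). These genes were picked for their rise on the same LM-EV arrays and were not detected there at 6 h. At the smallest over the alternative settings, their LM-EV log2 differences were 0.20, 0.22 and 0.29. DRD4 was 163 and 112 at 48 h and 211 and 153 at 6 h in BHLHE40-KD cells, lower at 48 h on both slides, against 90.4 and 67.9 at 48 h and 44.7 and 31.6 at 6 h in LM-EV cells. For IL6, GDF15, IL11, COL8A1 and MACROD1 the interaction lay between -0.09 and 0.21.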

How the data were processed

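Total RNA of 12 arrays (6 groups of 2, 1 of each group on each of 2 slides) was hybridized to Illumina HT-12 bead arrays. The authors exported intensities from GenomeStudio (version not given in the sources used here) after background subtraction and quantile normalization, and these deposited normalized intensities, linear and between -79.4 and 72594, were used here. Deposited detection p-values set which probes were detected (a gene was kept when both arrays of any group had p under 0.05). Deposited bead signal intensities could not be used for 5 arrays of slide 2, since 3 columns held copies of slide 1 columns and 2 matched no normalized column. On each array 20298 to 21830 probes were detected, and precision is limited by how many arrays there are.

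Of 47302 probes, 30105 had 1 gene symbol in the platform annotation, 8 several and 17189 none. Each of 12336 genes was given its detected probe with the highest mean. Values under 16 (38.7% of all) were set to 16 before log2, which bounds the changes of dim genes, and 514 genes were at this floor on at least 1 of the 4 arrays compared. A model with group and slide was fitted to all 12 arrays with limma 3.58.1 in R 4.3.3 (5 residual and 2.43 prior degrees of freedom, two-sided, Benjamini-Hochberg adjustment over all genes, adjusted p under 0.05). The fit was tested on simulated data. Standard errors (SE) are those of the fit, with a median of 0.180. The study's methods name 2 independent experiments, and taking a slide as 1 experiment rests on the layout. Where slides do not stand for separate cultures, p-values measure only the spread between these arrays. Deviations of arrays from their group mean, with the slide effect not removed, correlated above 0.1 between same-slide arrays in 13 of 15 pairs of groups (-0.02 to 0.28). Promoter sequences are those of RefSeq (GRCh38.p14), matched by symbol for 9895 genes.

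The genes named are the 28 past the threshold, list members with the smallest p-values or other list members as examples, leading members of each class, genes the study names, and the smallest p-values of the interaction, and others are marked as chosen after their values were seen. The members and lists were chosen with earlier results of these data known. Alternatives covered the floor, an added constant, the detection filter, probe choice, block, arrays fitted, variance prior, fold rule and each array left out.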

Additional observations from a re-analysis of the deposited data

Results flagged for a closer look

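Of all 12336 genes, 889 had both LM-EV slides on one side of 0 between 48 h and 6 h and both BHLHE40-KD slides on the other. They include 5 of the genes named here (28 past the threshold and 40 others). Some of the named genes were chosen for their small interaction p-values, so this count is partly set by that choice. For these 5 genes the difference between the lines (BHLHE40-KD minus LM-EV, log2) was tested as an interaction in limma. None of the 5 passed after adjustment. The interaction was -1.48 for DRD4 (adjusted p = 0.15), 2.43 for SLC27A6, a fatty acid transporter (adjusted p = 0.15), 3.02 for the histone demethylase gene KDM4D (adjusted p = 0.15), 3.29 for INCA1 (adjusted p = 0.18) and 1.54 for the antiviral gene RSAD2 (adjusted p = 0.79). INCA1 had 53.6 and 48.0 at 48 h and 10.4 and 20.9 at 6 h in BHLHE40-KD cells, and -5.82 and 10.8 at 48 h and 56.9 and 56.2 at 6 h in LM-EV cells. All 4 of its higher values lay near the lowest intensity of a detected probe.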

How the results depend on the processing

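The count of 28 genes (13 higher, 15 lower) depended on the processing. It was 155 (70 higher, 85 lower) with a constant of 100 added, 174 (80 and 94) over the 9548 genes with a detection p under 0.01 on all 12 arrays, 323 (150 and 173) with an intensity trend and robust prior, 45 (20 and 25) with every probe tested and 37 (14 and 23) with a floor of 64. Without the replicate block of slide it was 10 (6 and 4), and 0 with the 6 LM-EV arrays or the 4 compared arrays alone (limma; 1975 and 1695 genes at an unadjusted p under 0.05). Without a detection filter it was 29, of which 10 were among the 28. Of the 28, 21 were among the 155 genes, 19 among the 174, 23 among the 323, 28 among the 45 and 19 among the 37. The fold rule took 613 genes. Leaving out a single array gave 0 to 9 genes, and a single slide with no test 1737 to 2186 genes past 1.5-fold. None of the 28 genes changed direction under any alternative that tested it, and 9 of them were not tested under the stricter detection filter. At its smallest over the alternatives, the log2 difference was 0 for MTMR7 and -0.038 for CGN, so no change was left for these dim genes. For the other rises not detected at 6 h it was 0.20 for ALPL, 0.22 for PLCB2, 0.29 for DRD4, 0.43 for MICALCL and 0.55 for IL18R1. Those lay under a fold of 1.5, and PSG10P kept 1.45.

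The class counts moved by more than 1.5 times under every alternative, except for late genes with a floor of 64 (105, of which 56 high and 49 low). Transient genes (131, 58 high and 73 low) numbered 32 with a fold of 2, 61 (34 and 27) with a floor of 64, 22 (14 and 8) with 100 added, 45 (25 and 20) under the stricter detection filter, 6 from limma calls and 615 to 637 on a single slide. Sustained genes (220, 116 high and 104 low) numbered 45, 133, 51 (33 and 18), 93 (64 and 29), 25 and 640 to 821 in the same order. Late genes (153, 64 high and 89 low) numbered 59 with a fold of 2, 57 (31 and 26) with 100 added, 72 (36 and 36) under the stricter filter, 16 from limma calls and 622 to 900 on a single slide. The interaction passed for 0 genes, 0 to 3 without 1 array, and, under settings chosen after seeing the data, for 2 without a detection filter and 1 with the trend and robust prior. The causes were not tested. Of the 40 named genes short of the threshold, 20 passed under at least 1 alternative. Among named genes short of the threshold, leaving out 1 array turned the sign of 8 log2 differences, which then ran between -0.61 and 0.19 for BHLHE40, -0.40 and 0.36 for ADM, -0.16 and 1.39 for ANGPTL4, -0.29 and 0.085 for CCN2, -0.44 and 0.011 for IFI44, -0.30 and 0.049 for MX1, -0.19 and 0.46 for TXNIP and -0.16 and 0.26 for VEGFA. Intensities at the floor and at the top of the range limit what could be read for dim genes and for LDHA.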
